A study of Mus musculus with 6 samples.

Results

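The cytosolic ribosomal protein genes were taken as every gene whose symbol is Rps or Rpl followed by a number, with at most a short suffix letter and digit, together with Rplp0, Rplp1, Rplp2 and Rpsa. The rule uses names only and found 85 of the 20822 genes of the table, 51 of the large and 34 of the small subunit. Retinal cells had been enriched for the endothelial surface protein CD31 and captured in droplets by Drop-seq, which tags each mRNA at its 3′ end with a unique molecular identifier (UMI). All mice were at postnatal day 14 of oxygen-induced retinopathy (OIR), in which high oxygen first removes retinal capillaries and vessels regrow after return to room air. Of 6 libraries, 3 came from eNOS+/+ (C57BL/6J) and 3 from eNOS-/- mice, which lack endothelial nitric oxide synthase in every cell. Each library pooled 3 to 5 retinas, so it averages over animals, and nothing states that library numbers mark shared litters. The submitters' annotation puts the 8944 cells in 10 types, among them 5925 endothelial cells (ECs) split into Structural, Tip and Proliferative ECs.

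Ribosomal proteins clothe the ribosomal RNA of the 40S and 60S subunits, which read mRNA and join amino acids respectively. Cells need the proteins in equal numbers, so their genes are usually transcribed together and at high levels. Many of their mRNAs begin with a C followed by an unbroken run of pyrimidines (C or T), the 5′ terminal oligopyrimidine or TOP motif, through which the mTOR pathway tunes their translation. Growing and dividing cells are known for high ribosome production, and angiogenic endothelium contains both migrating tip cells and dividing cells.

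RefSeq promoters (GRCm38.p6, from 250 bases before to 50 after the annotated start) were found for 63 of the 85 genes. The following examples are shown because the start of the transcript is what these genes are known to share. They are Rps6, the S6 kinase substrate, at chr4:86857348-86857397 on the minus strand, Rps9 at chr7:3704011-3704060 on the plus strand, Rps24 at chr14:24490648-24490697 on the plus strand, Rps15a at chr7:118116128-118116177 on the minus strand and Rps2 at chr17:24720033-24720082 on the plus strand. Each runs 5′ to 3′ from 30 bases before the start through 20 bases of transcript, with the pyrimidine run in capitals.
Rps6: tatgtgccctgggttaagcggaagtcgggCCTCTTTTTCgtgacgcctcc
Rps9: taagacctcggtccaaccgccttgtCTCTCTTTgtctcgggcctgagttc
Rps24: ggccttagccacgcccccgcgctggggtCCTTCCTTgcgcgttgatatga
Rps15a: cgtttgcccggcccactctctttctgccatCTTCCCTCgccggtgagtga
Rps2: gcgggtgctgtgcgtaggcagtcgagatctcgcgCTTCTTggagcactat

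A C followed by at least 4 pyrimidines, on the sense strand within the 20 bases that open 5 bases before the start, was found in 36 of the 63 genes (57.1%) and in 27.7% of the 27025 genes with a promoter. CCGGAAG, the core letters bound by GABPA, was found on either strand of the 300-base window in 41.3% of the genes against 9.93% of all. AAGATGGC, the YY1 letters, was found in 9.52% against 3.19%, and it can share the letters AAG with the former. TATAAA was found in 12.7% against 15.7%, and CACGTG in 9.52% against 8.09%. A match is a description of the letters, and none of these counts was tested.

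The summed ECs of a library held 488367 to 2425603 UMIs, and the median EC had 418 to 1097.5. The 613 cells of eNOS+/+ replicate 2 carry the name of eNOS+/+ replicate 1 in one column of the cell table, but these libraries shared 0 cell barcodes. No pair of libraries shared more than 1. Haemoglobin genes, which mark red blood cells, summed to 8529 CPM (UMIs per 1000000) in the ECs of eNOS+/+ replicate 2 and to 24.3 to 4692 in those of the other libraries. The 5 mural markers (Pdgfrb, Rgs5, Cspg4, Acta2 and Myl9) summed to 2207 CPM in the ECs of eNOS-/- replicate 3 and to at most 115 in the others. The endothelial markers Pecam1, Cldn5, Cdh5, Kdr and Egfl7 summed to 4945 to 5934 CPM in the ECs of every library, against 637 to 1594 in the non-endothelial types with libraries summed. Nos3, the gene of eNOS, stood at 19.4 to 36.6 CPM in eNOS+/+ and 16.1 to 32.8 CPM in eNOS-/- ECs, and 3′ tags need not lie in the deleted part, so this does not check the labels.

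The ribosomal protein genes supplied 877709 of 10361314 UMIs, or 8.47% of the table. In ECs, 42 of the 85 exceeded 1000 CPM. The highest was Rpl41, which encodes the smallest ribosomal protein (GRCm38, chr10:128548114-128549305, minus strand), at 3649 ± 459 CPM (SD, n = 6 libraries). It was followed by Rps29 (chr12:69157722-69159186, minus strand) at 3278 ± 729 CPM, Rps14 at 2651 ± 235, Rps24 (chr14:24487125-24496959, plus strand) at 2322 ± 508 and Rps9 (chr7:3703993-3706897, plus strand) at 2321 ± 244. Rps24 and Rps9 differed by less than either SD, as did Rpl41 and Rps29. These 5 genes together held 15.3% of the ribosomal UMIs of ECs. A UMI counts a tagged 3′ end rather than a stretch of transcript, so CPM were not divided by length. The 85 genes lie on 19 chromosomes, with Rpl10, Rpl36a, Rpl39 and Rps4x on X.

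The proteins with known roles beyond the core of the ribosome lay in the same range. Rpsa, also known as the laminin receptor, stood at 1385 ± 330 CPM, Rps6 at 1192 ± 144 and Rps27a, made as a fusion with ubiquitin, at 1626 ± 282. The stalk proteins, which recruit elongation factors, stood at 1648 ± 151 for Rplp0, 1963 ± 503 for Rplp1 and 634 ± 141 for Rplp2. Rpl5 and Rpl11, which bind Mdm2 when ribosome assembly fails, stood at 319 ± 47.5 and 1101 ± 212 CPM. Rplp1 varied most among these, from 1118 CPM in eNOS+/+ replicate 2 to 2416 in eNOS-/- replicate 1.

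**Figure D1:**
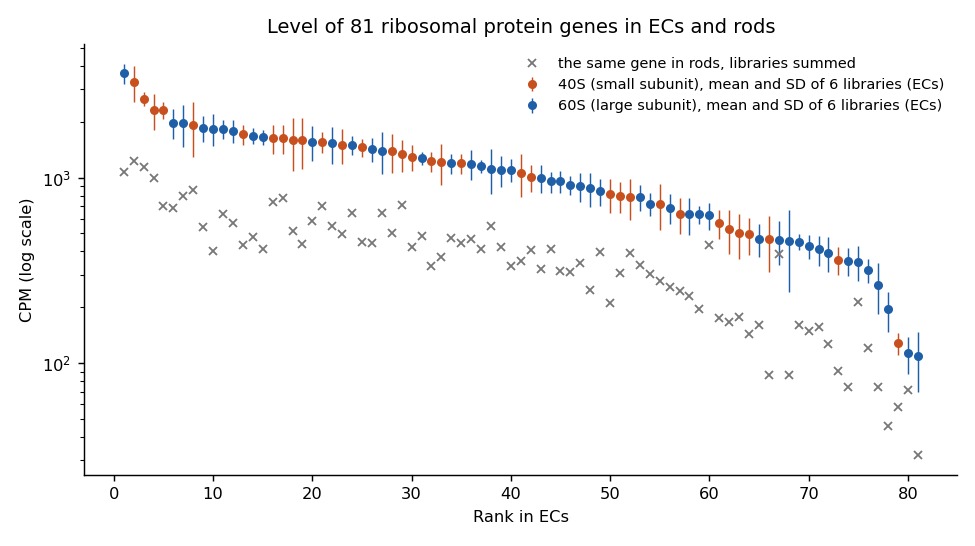
Level in CPM (log scale) of the 81 ribosomal protein genes with at least 10 CPM in ECs, against their rank in ECs. Filled points and bars are the mean and SD over the summed ECs of 6 libraries, orange for the small and blue for the large subunit, and crosses are the same gene in rods with libraries summed. Levels in ECs run from 3649 CPM for Rpl41 down to about 100, and every cross lies below its point.

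Only 4 genes stayed under 10 CPM in ECs. Rpl3l, the striated muscle form of Rpl3, had 9 UMIs in all ECs, Rpl39l, a testis form of Rpl39, had 16, Rps3a3 had 8 and Rpl32l had 18. Their parent genes were abundant, with Rpl3 at 901 ± 158 CPM and Rpl39 at 1397 ± 354. Other paralogs were well detected. Rpl22l1, which can replace Rpl22, stood at 468 ± 93.4 CPM against 1560 ± 334 for Rpl22. Rps27l, a p53 target, stood at 360 ± 62.7 against 501 ± 136 for Rps27, which differ by less than the sum of their SDs. Rps4l stood at 128 ± 16.9 against 1210 ± 298 for Rps4x, and Rpl7l1 at 113 ± 25.3 against 846 ± 141 for Rpl7.

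Ribosomal protein genes have many processed copies, and these bear on every level above. Against GENCODE M21 transcripts of GRCm38, a median of 38.6% of the 31-base words of a gene's principal transcript occurred in no other gene. For 58 of the 85 genes less than 50% were unique, from 1.27% in Rps27 to 100% in Rpl3l. The table holds 66 further rows named as Rps or Rpl pseudogenes (-ps), which summed to 427 to 753 CPM in the ECs of a library. Across the 81 genes with at least 50 UMIs in ECs, level and percent of unique words had a Spearman rho of 0.31, given as a description since genes are not independent replicates. How the authors' counting divided shared reads was not tested.

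Rps27 and Rps27l show a pair that sequence can tell apart from each other. Rps27 shares 311 of its 31-base words with Rps27rt, a protein-coding copy with 2 UMIs in ECs. Of the words in the last 300 bases of Rps27, 0% were unique. How reads were divided between Rps27 and Rps27rt was not tested. Rps27 lies at chr3:90212522-90213651 on the minus strand and Rps27l at chr9:66946086-66949516 on the plus strand. Both coding sequences have 255 bases, and they differ at 61 of them (76.1% identity). The first 90 coding bases are printed with the 24 differences in capitals, from GENCODE M21.
Rps27: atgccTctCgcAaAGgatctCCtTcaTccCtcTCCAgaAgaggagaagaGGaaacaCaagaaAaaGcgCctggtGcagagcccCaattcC
Rps27l: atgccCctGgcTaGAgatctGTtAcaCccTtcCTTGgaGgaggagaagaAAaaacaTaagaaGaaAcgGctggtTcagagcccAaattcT

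Vascular and immune cells devoted a larger share of their UMIs to ribosomal proteins than neurons, rods and glia did. The share was 9.07% ± 1.03 in all ECs (SD, n = 6 libraries), 9.51% ± 1.17 in Proliferative, 9.40% ± 0.99 in Structural and 8.13% ± 1.13 in Tip ECs. It was 8.45% ± 0.93 in mural cells (n = 5) and 10.3% ± 1.62 in immune cells (n = 5). Optc+ cells, named for the secreted protein opticin, lay between at 6.76% ± 1.08 (n = 5). Neurons had 3.66% ± 1.37 (n = 6), rods 3.61% ± 0.69 (n = 5) and neuroglia 3.28% ± 0.83 (n = 5). A library was used for a type where it held at least 10 of its cells, which left cones with 1 library, at 2.69% (95% Wilson interval 2.52 to 2.87, for counting error only). Neighbours in order of share differed by less than the larger of their SDs from immune cells through Tip ECs and from neurons through neuroglia. Structural ECs and mural cells differed by more than the mural SD of 0.93, though by less than the Structural SD of 0.99. Optc+ cells stood apart from both sets by more than either SD. In these sums, fewer ribosomal mRNAs per cell and more of all other mRNAs cannot be told apart.

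**Figure D2:**
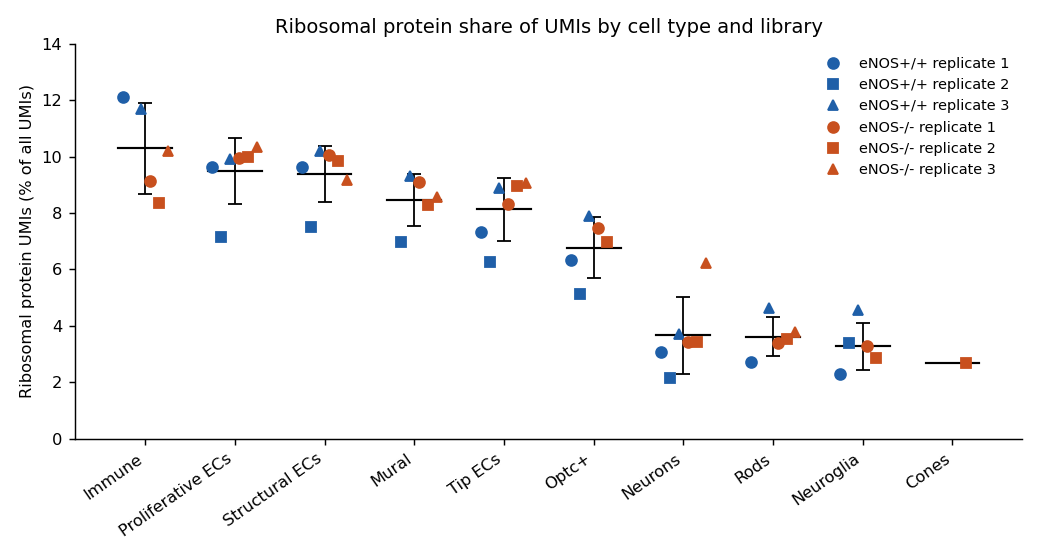
Percent of all UMIs that came from the 85 ribosomal protein genes (vertical axis, from 0) in each cell type with at least 10 cells in a library. Points are libraries (blue eNOS+/+, orange eNOS-/-), long bars the mean and whiskers the SD over libraries. Cell types from immune cells to Optc+ cells lie above 5%, rods and neuroglia lie below 5%, and eNOS+/+ replicate 2 is the lowest point of each EC subtype.

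The gap between endothelial and neural types held within libraries. The EC share was 2.11 to 3.33 times the rod share across the 5 libraries with both, up to 3.28 times the neuron share across 6 (median 2.82), and 2.08 to 3.92 times the neuroglia share across 5. The lowest ratio to neurons came from eNOS-/- replicate 3, with 9.32% in ECs and 6.23% in neurons, the latter on 10 cells. The order among neighbours did not hold, with immune cells above ECs in 3 of 5 libraries and rods above neurons in 2 of 5. Medians per cell told the same, with 59 ribosomal UMIs in an EC, 18 in a neuron and 10 in a rod, at median totals of 682, 579 and 361 UMIs. Types were assigned from these UMIs, and the paper's methods mention no exclusion of ribosomal protein genes from that step. Types were therefore compared without a test.

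The gap ran across the whole family. Of the 81 genes that reached 10 CPM in either type, all 81 were higher in ECs than in rods with libraries summed, and 74 were higher in each of 5 libraries, against 26.7% of all genes. The median difference was 1.56 on the log2 scale with libraries summed and 1.38 with libraries weighted equally. Single genes were less certain, since libraries differ. Rpl10 had the largest gap with libraries summed (2.36), but stood at 163 ± 167 CPM in rods over 5 libraries, from 14.8 to 418. With equal weights 80 of 81 genes were higher in ECs, and the exception was Rpl7l1 (-0.40). Against neurons, 81 of 81 were higher in ECs, 63 of them in each of 6 libraries (20.6% of all genes), with a median log2 difference of 1.45. Against neuroglia, 70 of 81 were higher in each of 5 libraries (21.7% of all genes). Against Optc+ cells, 79 were higher in ECs with libraries summed and 48 in each of 5 libraries (20.3% of all genes), with a median of 0.41. Against mural cells the summed levels split 55 to 26 with a median of 0.10, and 18 genes were higher in ECs in each library (17.3% of all genes). Against immune cells, where 82 genes reached 10 CPM, they split 48 to 34 with a median of 0.04, but with libraries weighted equally 35 of 82 were higher in ECs, and 5 were higher in ECs in each library (25.9% of all genes). Optc+ cells in turn were higher than rods for 68 of 81 genes in each of 4 libraries (9.38% of all genes) and higher than neurons for 54 in each of 5 (6.41%). Rods and neurons were close to even, with 36 genes higher in rods, 1 of them in each of 5 libraries (3.55% of all genes). Rods and neuroglia split 44 to 37, with 13 genes higher in rods in each of 4 libraries (12.4% of all genes). Rod markers summed to 30.7 to 453 CPM in the ECs of a library, highest in eNOS-/- replicate 2, and their part in these gaps was not tested.

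Among ECs, Tip ECs had the lowest share. Structural ECs were higher than Tip ECs in 6 of 6 libraries, by 1.27 ± 0.75 percentage points (SD of the 6 differences), and Proliferative ECs in 6 of 6, by 1.37 ± 0.53. Proliferative and Structural ECs did not separate, with 3 of 6 libraries each way and a difference of 0.10 ± 0.56, and 6 of 81 genes were higher in Proliferative ECs in each library (6.93% of all genes). With libraries summed, 80 of 81 genes were higher in Structural than in Tip ECs, 37 of them in each library, against 9.12% of all genes. The exception was Rpl38, a 60S protein known from skeletal patterning defects in Tail-short mice (chr11:114668524-114672331, plus strand). Its level in Tip ECs was 1466, 1640 and 2695 CPM in the eNOS+/+ and 2020, 2346 and 2195 CPM in the eNOS-/- libraries. In Structural ECs it was 1372, 1271 and 2294, and 1578, 1878 and 1543 CPM. Tip ECs were thus higher in 6 of 6 libraries for this gene. Rpl38 was picked after its values were seen.

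Proliferative ECs exceeded Tip ECs for 74 of 81 genes with libraries summed, 43 of them in each library, against 11% of all genes. Rps27l led, at 461 ± 32.1 CPM in Proliferative, 348 ± 67.1 in Structural and 282 ± 99.6 in Tip ECs. Proliferative ECs were above both other subtypes for Rps27l in 6 of 6 libraries. Its partner Rps27 stood at 469 ± 170, 550 ± 137 and 459 ± 151 CPM, differences within the SDs.

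To see whether types differ in the mix of ribosomal proteins rather than in their amount, each gene was expressed as a share of the ribosomal UMIs. Among the 80 genes with at least 10 CPM in each of 10 types, the SD of the log2 share over types had a median of 0.23. The steadiest were Rpl14 (0.09), Rpl17 (0.09) and Rpl31 (0.12). The most uneven were Rps27l (0.99), Rps4l (0.87), Rpl36 (0.85), Rps12 (0.69), Rps2 (0.59) and Rpl7l1 (0.57). Cones, with 54093 UMIs in all, entered these values, and without them the SD of Rpl36 was 0.15 and that of Rps12 0.35. These values sum the libraries of a type, and the libraries differ both in their mix of types and in the levels of single genes. The shares were therefore also averaged with each library of at least 10 cells weighted equally, an alternative chosen after seeing the data, as was leaving out cones. Over 9 types, the paralogs Rps27l, Rps4l and Rpl7l1 held the first 3 places either way, with SDs of 0.67, 0.80 and 0.50 from summed libraries and 0.94, 0.86 and 0.76 from equal weights. These are also low genes, with 28, 8 and 12 UMIs in the type where they had fewest. Below them the order depended on the weighting. Rpl38, Rpl10 and Rps2 ranked 4, 5 and 6 with libraries summed and 9, 15 and 11 with equal weights, where Rpl36a, Rpl21 and Rpl35 took places 4 to 6. Of the first 6 genes, 3 were shared.

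Rps27l was 0.57% ± 0.09 of ribosomal UMIs in mural cells, 0.50% ± 0.11 in Proliferative ECs and 0.36% ± 0.15 in Tip ECs. It was 0.10% ± 0.11 in neurons and 0.81% ± 0.53 in neuroglia, each on 28 UMIs. Rps4l was 0.14% ± 0.03 of the ribosomal UMIs of ECs and 0.30% ± 0.28 in neurons, on 51 UMIs, and its SD over libraries there is as large as the value. Rpl38 made up 2.52% ± 0.34 in Tip, 2.02% ± 0.23 in Proliferative and 1.75% ± 0.29 in Structural ECs, and 1.10 to 1.39% on average in mural, immune, Optc+ and neural types. Rpl21 and Rpl10a each made up 1.19% in rods (SD 0.18 and 0.38) against 0.50% ± 0.10 and 0.69% ± 0.04 in ECs. The rod shares of Rpl21 and Rpl10a rest on 254 and 285 UMIs. Rpl21 shares at least 100 words of 31 bases with 59 genes, among them Gm10240. That row had 1868 UMIs in ECs against 4245 for Rpl21, and how reads were divided between these rows was not tested. Small subunit genes supplied 0.80 to 0.91 UMIs for each large subunit UMI in every type.

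**Figure D3:**
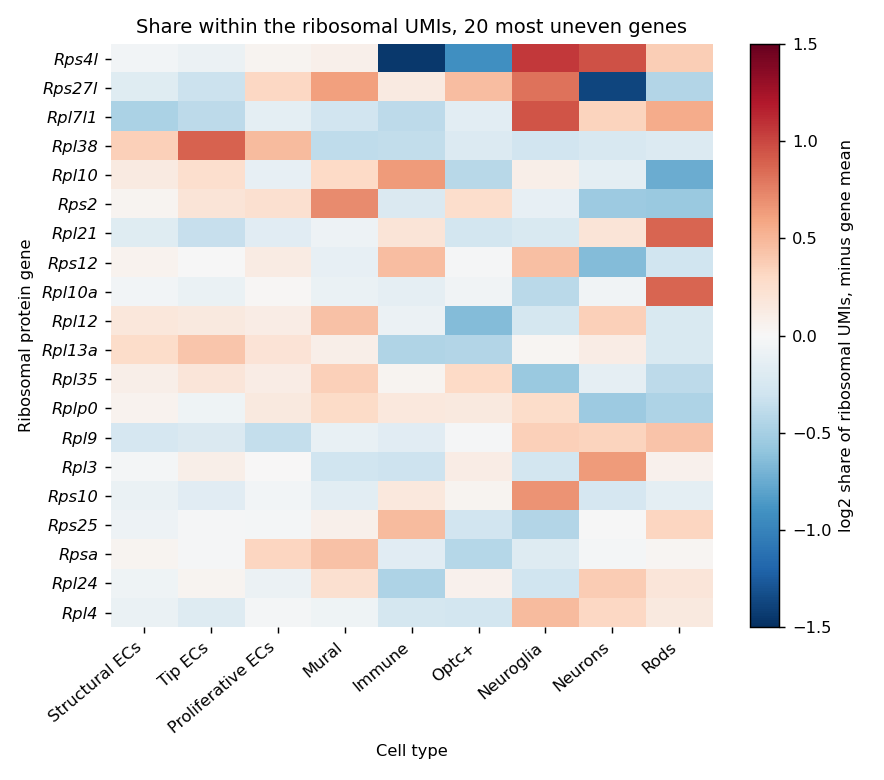
The 20 ribosomal protein genes whose share of ribosomal UMIs varied most over 9 cell types (cones left out, libraries summed). Colour gives the log2 share in a type minus the gene's mean over types, red above and blue below. Rps4l is lowest in immune cells, Rps27l is lowest in neurons, Rpl38 is highest in Tip ECs, and Rpl21 and Rpl10a are highest in rods.

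Loss of eNOS was compared on the UMIs of each EC subtype summed per library, with edgeR's quasi-likelihood test and Benjamini-Hochberg adjustment over all genes tested. In each fit 81 of the 85 genes passed the filter on low counts, and the 4 genes under 10 CPM did not. None of the 81 was called in all ECs, where 0.0211% of 9483 genes were, and none in Tip (0.0181% of 5510), Structural (0.0264% of 7577) or Proliferative ECs (0.0217% of 4607). DESeq2 called none of them either. At an unadjusted p under 0.05 there were 1, 2, 1 and 3 of them, against 5.78%, 4.95%, 5.52% and 6.38% of all genes. The gene lower in eNOS-/- at that level was Rps2 in each fit (3.52%, 3.14%, 3.22% and 3.91% of all genes were lower). The genes higher at that level were Rps15a in Tip ECs and Rpl37 and Rps26 in Proliferative ECs, and none in all or Structural ECs (2.26%, 1.81%, 2.3% and 2.47% of all genes were higher). An interaction fit over the 18 subtype sums, which asks whether the genotype difference differs between subtypes, called 0 of 7019 genes (0% of those tested, 3.43% at an unadjusted p under 0.05) and 0 of the 81, with 0 at an unadjusted p under 0.05. The smallest adjusted p among them was 1.00.

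Most of the genes were nonetheless slightly higher in eNOS-/-. The fitted log2 fold change was above 0 for 67 of 81 in all ECs (51.1% of all genes), with a median of 0.11 against 0.01 over all genes. In Tip ECs it was above 0 for 65 (50.5% of all genes) with a median of 0.19, in Structural ECs for 52 (50.9%) with a median of 0.05 and in Proliferative ECs for 69 (51.7%) with a median of 0.19. One library carried much of this. Of the 81 genes, 54 had their lowest level of the 6 libraries in eNOS+/+ replicate 2, against 17.1% of all genes. The same held for 47 in Tip ECs (17.6% of all genes), 51 in Structural ECs (20.5%) and 56 in Proliferative ECs (15%). Without that library the medians were 0.01, 0.08, -0.05 and 0.04 in the same order as the fits above. Without eNOS+/+ replicate 3 they were 0.26 in all, 0.38 in Tip and 0.16 in Structural ECs. The ECs of eNOS+/+ replicate 2 also had the highest Malat1, a nuclear RNA, at 10246 CPM against 5654 to 9805. Haemoglobin in eNOS+/+ replicate 2 summed to 22522 CPM in Structural ECs, the most of any library. It summed to 118 CPM in Tip ECs, where eNOS-/- replicate 3 had 400, and to 67.5 in Proliferative ECs, where eNOS+/+ replicate 3 had 126. The ribosomal share of eNOS+/+ replicate 2 was the lowest in all 3 subtypes. The part of Malat1 or haemoglobin in its ribosomal levels was not tested.

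The total share moved likewise. In all ECs it was 9.03%, 7.03% and 9.74% in eNOS+/+ replicates 1, 2 and 3, and 9.66%, 9.62% and 9.32% in eNOS-/-. The groups overlapped, and the means of 8.60% ± 1.40 and 9.53% ± 0.18 (SD, n = 3 each) differed by 0.93 points, less than the sum of the SDs. In Proliferative ECs the groups did not overlap, at 9.64%, 7.16% and 9.93% against 9.97%, 9.98% and 10.3%, but the gap between the nearest libraries was small and the difference of 1.19 points fell within the summed SDs of 1.74. In Tip ECs the difference was 1.29 points and in Structural ECs 0.58, both with overlap. Without eNOS+/+ replicate 2 the differences were 0.15 points in all ECs, 0.31 in Proliferative, 0.67 in Tip and -0.22 in Structural ECs. Immune cells went the other way, at 12.1% and 11.7% in 2 eNOS+/+ libraries with 21 and 26 cells, against 9.15%, 8.35% and 10.2% in eNOS-/-. Markers of pigmented epithelium (Rpe65, Ttr, Rlbp1 and Rgr) summed to 2275 and 7945 CPM in the cells labelled immune of eNOS-/- replicates 1 and 2 and were at 0 in the other 3 libraries. Haemoglobin summed to 3412 and 374 CPM in the eNOS+/+ and 193, 149 and 6892 CPM in the eNOS-/- libraries, and the part of either in the immune share was not tested.

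**Figure D4:**
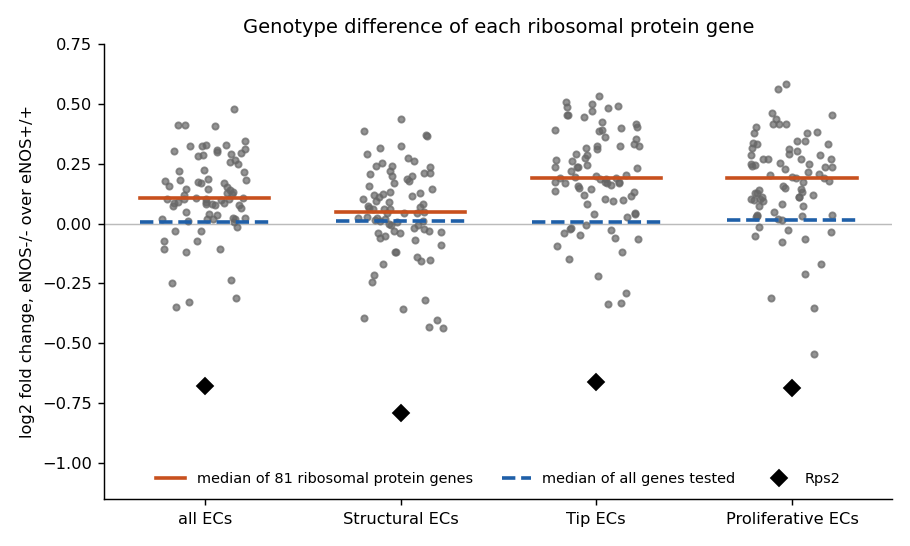
Fitted log2 fold change, eNOS-/- over eNOS+/+, of the 81 ribosomal protein genes tested in each fit, 1 point a gene. Solid lines are their median (0.11 in all ECs, 0.05 in Structural, 0.19 in Tip and 0.19 in Proliferative ECs), dashed lines the median of all genes tested, and diamonds Rps2, the lowest in every fit.

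Rps2, a 40S protein near the mRNA entry channel (chr17:24718116-24721929, plus strand), had the lowest fold change of the family in all 4 fits. In all ECs it was 594, 542 and 579 CPM in eNOS+/+ replicates 1, 2 and 3, and 276, 257 and 555 CPM in eNOS-/-. The first 2 eNOS-/- libraries were thus below every eNOS+/+ library, and the third lay among them. The log2 fold change was -0.68 (SE 0.27), with an unadjusted edgeR p of 0.026 and an adjusted p of 0.82, so the difference was not called. In Proliferative ECs the groups did not overlap, at 672, 580 and 623 against 362, 296 and 576 CPM (log2 fold change -0.69, SE 0.25, edgeR adjusted p 0.60), where 5.43% of all genes had every eNOS-/- library lowest. Nos3 tags do not check the genotype label of any library (above), and no label was in doubt more than another on that ground. The genotype values of Rps2 and Rpl35 turn on eNOS-/- replicate 3. Those of Rpl35 turn on eNOS-/- replicate 1 as well, as given at the end. Without eNOS-/- replicate 3 edgeR called Rps2 in all ECs (log2 fold change -1.12, adjusted p 0.018) and in Structural ECs (-1.30, adjusted p 0.024). Rps2 was also called in Proliferative ECs (-0.92, adjusted p 0.030), but not in Tip ECs (-1.06, adjusted p 0.081). Calls over all genes with a library left out are given at the end as ranges. The share of all genes called in these fits is therefore not shown beside Rps2. In all ECs the library left out had the highest Rps2 of eNOS-/-, at 555 CPM against 276 and 257. The calls depend on leaving it out and are not separate support for a genotype difference. The mural markers of eNOS-/- replicate 3 summed to 3782 CPM in Structural, 295 in Tip and 307 in Proliferative ECs. Its Rps2 was 557, 540 and 576 CPM in the same order, and the part of mural RNA in these levels was not tested.

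Other cell types were read for the same split of libraries. In mural cells Rps2 stood at 744 and 486 CPM in eNOS+/+ replicates 2 and 3, at 343 and 331 in eNOS-/- replicates 1 and 2 and at 808 in eNOS-/- replicate 3. Rods split alike for Rps2 alone, with 109 and 238 CPM in eNOS+/+ replicates 1 and 3 and 54.3 and 74.7 in eNOS-/- replicates 1 and 2. In eNOS-/- replicate 3 Rps2 stood at 139 CPM in rods, on 1 UMI. In Optc+ cells it stood at 416, 531 and 328 in eNOS+/+ and at 186 and 185 CPM in eNOS-/- replicates 1 and 2, and eNOS-/- replicate 3 had too few of these cells. Neurons did not split this way, at 158, 0 and 178 CPM in eNOS+/+ and 125, 60.8 and 167 in eNOS-/-. Neuroglia had 125, 0 and 359 CPM in eNOS+/+ and 34.8 and 83.4 in eNOS-/- replicates 1 and 2. Nor did immune cells, with 244 CPM in eNOS+/+ replicate 1 (2 UMIs), 665 in eNOS+/+ replicate 3, and 262, 106 and 722 in eNOS-/- replicates 1, 2 and 3. These levels rest on 0 to 78 UMIs each and were not tested. The split was first seen in the ECs of these same libraries, so the other types are not independent of it. With libraries summed, endothelial markers stood at 1073 CPM in mural, 637 in Optc+ and 1594 in immune cells and 993 in rods, against 5479 in all ECs. The part of endothelial RNA in these Rps2 levels was not tested.

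Rps2 has a near copy, Rps2-ps10, a transcribed processed pseudogene with its own row, which differs from the Rps2 coding sequence at 5 of 882 bases (99.4% identity). In all ECs it stood at 393, 411 and 487 CPM in eNOS+/+ and 312, 189 and 420 CPM in eNOS-/-, so it was low in the same libraries. The sum of both rows was 987, 954 and 1066 CPM against 588, 446 and 975 CPM. Only 14.7% of the 31-base words of Rps2 were unique, so reads of the 2 genes cannot be fully told apart. In ECs the sum keeps the pattern of Rps2 alone. It also does in mural cells (1539 and 1006 against 751, 429 and 1264 CPM) and Optc+ cells (475, 786 and 657 against 373 and 267 CPM). In rods it does not, at 271 and 286 CPM in eNOS+/+ and 279, 163 and 139 CPM in eNOS-/- replicates 1, 2 and 3.

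Rpl35, a 60S protein at the exit of the peptide tunnel (chr2:39001580-39005624, minus strand), spread most within eNOS-/-. It stood at 441, 641 and 437 CPM in eNOS+/+ and at 177, 284 and 749 CPM in eNOS-/- ECs (log2 fold change -0.35, SE 0.40, edgeR adjusted p 0.97). The eNOS-/- libraries thus held both its lowest levels and its highest. Without eNOS-/- replicate 3 it was called in Proliferative ECs (log2 fold change -1.17, edgeR adjusted p 0.0031), in the fit that also called Rps2. The share of all genes called in that fit is not shown here either. The library left out had the highest Rpl35 in all ECs, at 749 CPM, so this call too depends on leaving it out. In immune cells Rpl35 stood at 853 and 831 CPM in eNOS+/+ replicates 1 and 3, at 124 and 212 in eNOS-/- replicates 1 and 2 and at 722 in eNOS-/- replicate 3, on 7 to 20 UMIs each. The part of endothelial RNA in these immune levels was not tested. Rpl36a, on the X chromosome, also was lowest in those 2 libraries of ECs, at 155 and 212 CPM, against 369 in eNOS-/- replicate 3 and 221 to 326 in eNOS+/+ (log2 fold change -0.25, edgeR adjusted p 0.97). Rpl13 (-0.33) and Rps18 (-0.31) complete the 5 lowest.

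At the other end stood Rps26, Rps21, Rps15a, Rpl37 and Rpl30, with log2 fold changes of 0.48, 0.41, 0.41, 0.41 and 0.35 and edgeR adjusted p of 0.88 to 0.93. Rps26, a 40S protein at the mRNA exit, was 1539, 788 and 1640 CPM in eNOS+/+ and 2193, 1974 and 1421 CPM in eNOS-/- ECs, and the groups overlapped. Rps15a was 708, 550 and 774 against 914, 962 and 848 CPM, and Rpl37 was 637, 509 and 626 against 694, 855 and 811 CPM. For Rps15a, Rpl37, Rpl32 and Rpl19 all eNOS-/- libraries lay above all eNOS+/+ libraries in all ECs, 4 of 81 genes against 5.39% of all genes tested. In Tip ECs 10 of 81 did so (4.94% of all genes), in Structural ECs 2 (5.74%) and in Proliferative ECs 6 (5.36%). None of the 81 had every eNOS-/- library lowest in all ECs (5% of all genes), Tip (5.41%) or Structural ECs (4.79%), and in Proliferative ECs 2 did, Rps2 and Rps18 (5.43%).

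**Figure D5:**
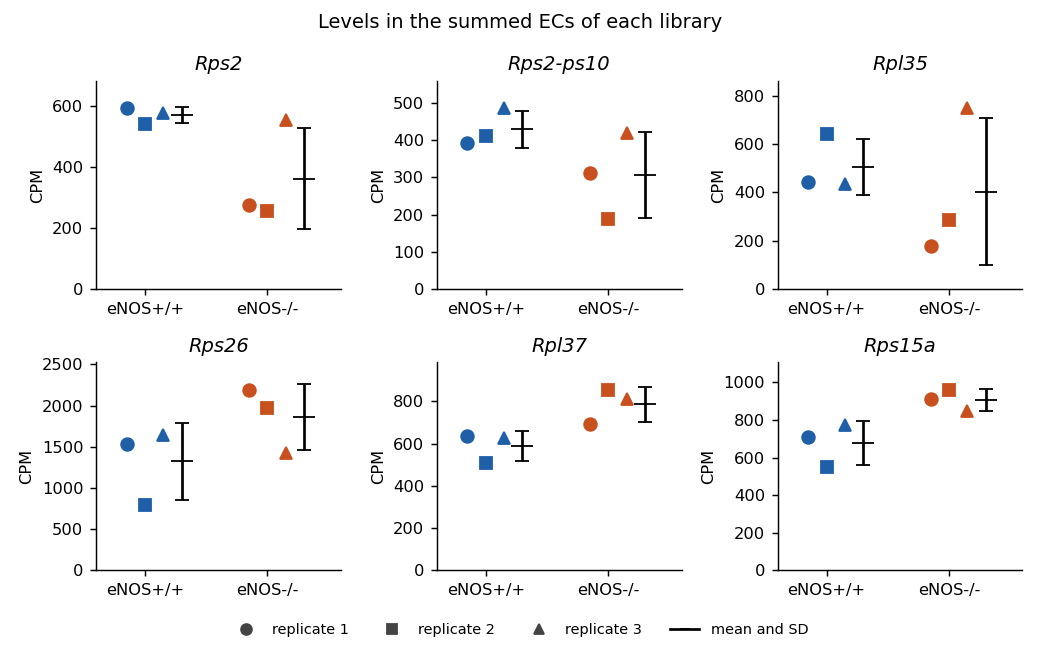
Level in CPM in the summed ECs of each library for Rps2, its near copy Rps2-ps10, Rpl35, Rps26, Rpl37 and Rps15a (vertical axes from 0). Symbols mark replicates, and bars give the mean and SD of 3 libraries. For Rps2, Rps2-ps10 and Rpl35, eNOS-/- replicates 1 and 2 lie below every eNOS+/+ library and eNOS-/- replicate 3 does not, while for Rpl37 and Rps15a all eNOS-/- libraries lie above.

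The paralogs did not stand out by genotype. Fitted log2 fold changes in all ECs were 0.01 for Rpl22l1, 0.04 for Rps27l, 0.08 for Rps4l and 0.02 for Rpl7l1, with SE of 0.21 to 0.24, and 0.14 for Rpl22, -0.12 for Rps27, 0.28 for Rps4x and 0.30 for Rpl7. Among the genes with other known roles, the values were 0.25 for Rpsa, 0.10 for Rplp0, 0.33 for Rplp1, 0.15 for Rplp2, -0.11 for Rps6, -0.03 for Rpl5, 0.09 for Rpl11 and 0.18 for Rps27a.

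The other parts of the translation machinery were read in the same fits, and edgeR called none of their genes in any of them. Fau, a ribosomal gene whose name falls outside the rule and which makes a 40S protein fused to a ubiquitin-like one, had a log2 fold change of 0.47 in all ECs (SE 0.23, edgeR adjusted p 0.86). Of the mitochondrial ribosomal proteins, 38 of 75 tested were above 0 (median 0.02), with Mrps24 at -0.76 and Mrpl33 at -0.51. Of the ribosome biogenesis genes, 13 of 24 were above 0 (median 0.02), with Fbl, the rRNA methyltransferase fibrillarin, at -0.98 (SE 0.40, edgeR adjusted p 0.82). Of the translation factors, 16 of 30 were above 0 (median 0.00), with Eif3f at -0.87, the poly(A)-binding protein Pabpc1 at -0.48 and Eif1ax at 0.46. Of the genes that control translation of TOP mRNAs, 4 of 13 were above 0 (median -0.11), with Rheb, the activator of mTORC1, at -0.50. The list counts so far are for all ECs. In Tip ECs 4 of 19 ribosome biogenesis genes were above 0 (median -0.17), against 50.5% of all genes. In Structural ECs 12 of 21 were (50.9%), and in Proliferative ECs 10 of 18 (51.7%). For the TOP control genes it was 1 of 6 in Tip ECs (median -0.44), 3 of 9 in Structural and 2 of 5 in Proliferative ECs. In all ECs, eNOS+/+ replicate 2 had the lowest level for 10.7% of the mitochondrial ribosomal proteins, 10% of the translation factors and 8.33% of the ribosome biogenesis genes, against 66.7% of the cytosolic ribosomal proteins. These shares were not tested against each other.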

How the data were processed

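The authors generated Drop-seq libraries from CD31-enriched P14 OIR retinas, quantified them with kb-python on GRCm38, and processed them in Seurat 3, per the paper's methods and the submitters' processing notes. They removed cells with few genes or many mitochondrial counts, annotated cell types, and deposited raw UMI counts of 8944 cells with a table of cell labels. Here 13 columns of the cell labels were not used. The version of the gene annotation is not given in the sources used here.

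UMIs were summed per cell type and library. CPM and shares were computed from the sums. All genes were tested between genotypes with edgeR 4.0.16 (filterByExpr, TMM, quasi-likelihood, Benjamini-Hochberg adjustment at 0.05) on 3 against 3 sums, under R 4.3.3, and with DESeq2 1.42.0 as an alternative. The fits were tested on simulated data. Each SE was derived as the size of the fold change over the square root of F. P-values measure the spread between these libraries, each a pool of retinas. The half-width of the 95% Wilson interval was at most 0.21 points for any EC share. Words of 31 bases and coding sequences came from GENCODE M21. Python 3.11.15 was used for descriptions. Doublets were not called again.

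The genes named are those called in any fit, the 5 highest and 5 lowest fold changes in all ECs, the paralogs and their partners, the most and least uneven genes over cell types, the 5 highest in ECs, 8 genes with known other roles, and up to 3 per comparison list. The members and lists were chosen with earlier results of these data known. Alternatives were other tools, scaling, filters, denominators and left-out libraries. The list of ribosomal genes with names outside the rule is not reported here as a list.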

Additional observations from a re-analysis of the deposited data

Results flagged for a closer look

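In the 20 sets of libraries examined for a value far from the rest, 2 were found, where chance gives about 1 in 20. Both are eNOS+/+ replicate 2, whose ribosomal share was 7.03% in all ECs and 7.16% in Proliferative ECs. The gap to the next library was 0.74 and 0.78 of the whole range. These 2 are not independent, since the first sum contains the second. The ribosomal share moved in opposite directions between genotypes in 2 cell types without overlap of the groups, by 1.19 points upward in eNOS-/- Proliferative ECs and by -2.68 points in eNOS-/- immune cells, where only 2 eNOS+/+ libraries had enough cells and pigmented epithelium markers were above 0 in 2 of the 3 eNOS-/- libraries alone. The difference between these types was not tested.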

How the results depend on the processing

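The count of ribosomal protein genes called was 0 in each fit under DESeq2, other scaling, no filter, removal of mitochondrial genes, cells of at least 500 UMIs and the replicate block. With 1 library left out it ranged from 0 to 1 for all ECs, 0 to 1 for Structural and 0 to 2 for Proliferative ECs, above 0 only without eNOS-/- replicate 3. With that library and eNOS+/+ replicate 2 both left out, a choice made after seeing the data, it was 1 in all ECs (Rps2). Over all genes, calls numbered 2, 1, 2 and 1 in all, Tip, Structural and Proliferative ECs, 84, 8, 74 and 10 without the filter on low counts (the interaction then gave 4), 38, 10, 6 and 26 without both libraries, and 0 to 78, 0 to 25, 0 to 28 and 0 to 73 with 1 library left out. Cells of at least 500 UMIs gave 1, 2 and 0 calls in all, Tip and Structural ECs, and DESeq2 gave 2 in Tip ECs. Deviations of libraries of the same number correlated at 0.13, -0.07 and 0.11, and those of other numbers at -0.17 to 0.13. Deviations from a mean of 3 libraries constrain each other, so these values cannot decide whether libraries were paired. The replicate block gave 11 calls in Structural and 3 in Proliferative ECs and changed no other count by over 1.5 times. With 1 library left out, signs turned for some log2 fold changes. In all ECs Rpl35 ranged from -1.14 to 0.036 and Rpl36a from -0.65 to 0.023, both highest without eNOS-/- replicate 1. In Tip ECs Rpl35 ranged from -1.13 to 0.15 and Rpl36a from -0.76 to 0.028, both highest without eNOS-/- replicate 1, and Rps18 from -0.36 to 0.038, highest without eNOS+/+ replicate 2, and dropping eNOS-/- replicate 1 instead gave 0.024. In Proliferative ECs Rpl36a ranged from -0.36 to 0.18, with 0.028 without eNOS-/- replicate 2. The cause was not tested. Every share by cell type and by genotype moved by less than 1 SD under each alternative run. Without eNOS+/+ replicate 2 the genotype difference of the share still changed sign in Structural ECs, as given above.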
